A study of Mus musculus with 33 samples.

Results

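Plagl1, also called Zac1, was examined for the effect of a second active copy in cells sorted from the ribs of mouse fetuses. The gene is imprinted: in most tissues the maternal copy is silenced by DNA methylation and only the paternal copy is read. Its protein binds DNA through zinc fingers and regulates transcription. Plagl1 belongs to a network of imprinted growth genes and is known for its part in cell cycle arrest, and it is expressed in developing cartilage. Prehypertrophic chondrocytes, the cell type named by the labels, are cartilage cells that have stopped dividing, secrete collagen II and aggrecan, and signal through Indian hedgehog before they enlarge.

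The members were all 11 columns of the E18.5 costal table, out of 29 columns in the series: 6 animals that express Zac1 biallelically (Zac1LOM, CC1 to CC6) and 5 wild type animals (Zac1LMOI, CC7 to CC11). Each column was 1 animal at E18.5, and the other 18 columns were tongues. Per the labels, rib cages were digested with trypsin and collagenase, cells that bound antibodies to both Cd24a and Cd200 were sorted, and about 2000 cells a library went into SMART-seq2 libraries of polyadenylated RNA. For the tongues of the same series the labels describe the biallelic mice as Zac1o knockout animals; the allele of the rib donors is given only as biallelic expression, and no source used here names the litters. CC1 to CC4 have 2 labelled libraries each but 1 column each, while CC5, CC6 and all wild type animals have 1. Values without CC1 to CC4 therefore compare animals with 1 library each; Plagl1 kept its direction there, with a log2 fold change of 2.07.

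Values are reads scaled to the library total (RPM), with no correction for gene length. The read totals behind them were 7221013 to 15689559 in biallelic animals and 2938462 to 7887305 in wild type animals, so that 3 reads corresponded to 0.191 to 0.415 RPM in biallelic and 0.3804 to 1.02 RPM in wild type animals. Of these totals the listed genes held 60.4% to 65.5% in biallelic animals. They held 58.1%, 55.6%, 61.2%, 65.3% and 66.2% in wild type CC7 to CC11. The first principal component held 30.6% of the variance, and wild type animals CC7, CC8 and CC9 scored 64.3 to 89.8 on it, biallelic animal CC5 scored 17.2, and the other 5 biallelic animals and wild type CC10 and CC11 scored -52.2 to -23.7. The main results that move without CC7 to CC9 are given with and without them. Y-linked genes were detected in biallelic CC2, CC3 and CC4 and in wild type CC7. The median SD of a gene within a genotype was 0.434 on the log2 scale in biallelic and 0.648 in wild type animals.

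The promoter of Plagl1 is shown first, because the biallelic genotype concerns the copy that methylation of CG dinucleotides keeps silent. It is the RefSeq window from 250 bases before to 50 bases after the annotated start, chr10:13090582-13090881 on the plus strand of GRCm38.p6, written 5′ to 3′ with its 26 CG dinucleotides in capitals. Methylation was not measured in these samples.
Plagl1: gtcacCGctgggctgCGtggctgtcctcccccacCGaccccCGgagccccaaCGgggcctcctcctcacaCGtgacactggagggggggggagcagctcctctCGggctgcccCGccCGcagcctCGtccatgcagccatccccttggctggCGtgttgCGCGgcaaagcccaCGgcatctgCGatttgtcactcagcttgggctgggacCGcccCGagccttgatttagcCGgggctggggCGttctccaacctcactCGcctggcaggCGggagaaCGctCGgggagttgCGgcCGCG

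Plagl1 itself was higher in every biallelic animal than in any wild type animal. The gene lies on chromosome 10 of GRCm38 (chr10:13090691-13131694). Its level was 17.5, 24.6 and 49.99 RPM (lowest, median and highest of 6) in biallelic animals, against 11.1, 6.21, 3.18, 8.88 and 15.3 RPM in wild type animals CC7 to CC11. The groups did not overlap, with biallelic CC5 well above the rest and biallelic CC1 only just above wild type CC11. The means were 27.9 ± 11.5 RPM (SD, n = 6) and 8.94 ± 4.63 RPM (SD, n = 5), a ratio of 3.12. The log2 fold change was 1.74 (SE 0.38), with an adjusted p of 0.423 in limma over all 11127 genes tested. For this gene alone an exact two-sided permutation test over the 11 animals gave p = 0.00216, the smallest its 462 arrangements allow. Without wild type CC7, CC8 and CC9 the log2 fold change was 1.17, and without biallelic CC5 as well it was 0.99.

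**Figure D1:**
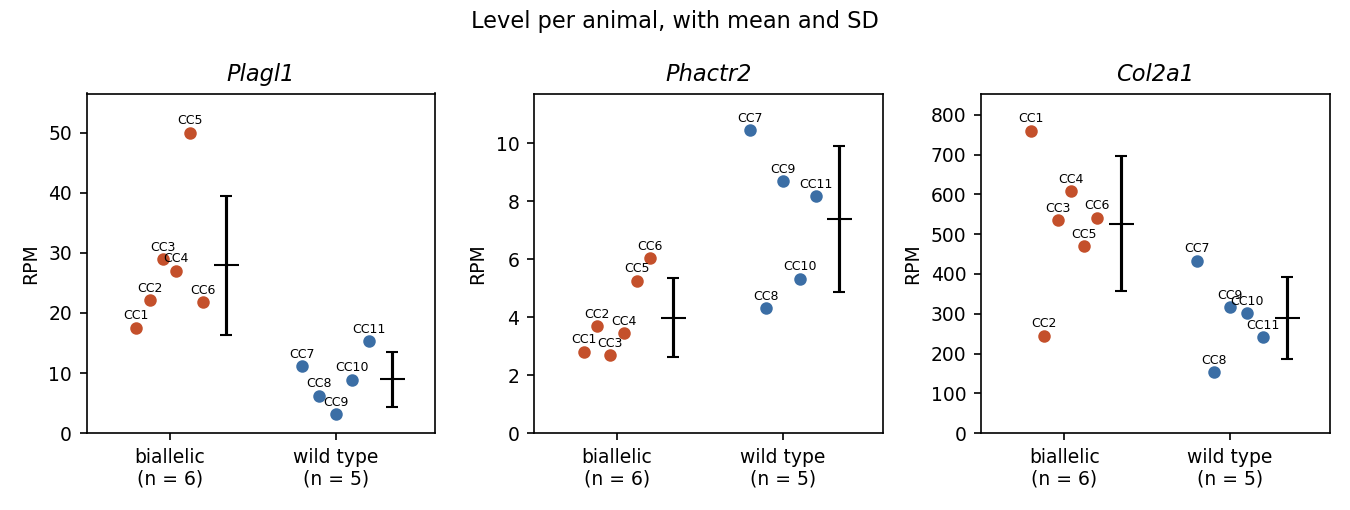
Levels of Plagl1, Phactr2 and Col2a1 in RPM (vertical axes) in 6 biallelic and 5 wild type animals; points are animals, the bar beside them the mean and its whiskers the SD. Plagl1 separated the genotypes, with a lowest biallelic value of 17.5 RPM and a highest wild type value of 15.3 RPM, while Phactr2 and Col2a1 overlapped.

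Genes next to Plagl1 and its relatives were compared as one list. Plag1 and Plagl2, the other members of this zinc finger family, overlapped between the genotypes. Plag1 averaged 6.20 ± 2.51 RPM in biallelic (SD, n = 6) and 6.66 ± 3.60 RPM in wild type animals (SD, n = 5), and Plagl2 averaged 45.3 ± 7.47 and 48.1 ± 5.98 RPM in the same order. Of 13 tested members, 10 were lower and 3 higher, and their median log2 fold change was -0.10 beside -0.11 over all genes tested. Under median centring 4 were lower and 9 higher, where the median of all genes tested was 0.12. Phactr2, whose protein binds actin and protein phosphatase 1 and which lies downstream of Plagl1 (chr10:13207717-13474396), was at 2.68, 3.57 and 6.03 RPM (lowest, median and highest of 6) in biallelic animals, against 10.5, 4.32, 8.68, 5.33 and 8.17 RPM in wild type CC7 to CC11. Its groups overlapped, and its log2 fold change was -0.88 (SE 0.36, adjusted p = 0.425 in limma), or -0.32 without CC1 to CC4. Ltv1, a ribosome assembly factor between Plagl1 and Phactr2, had a log2 fold change of -0.93 (SE 0.42), which was -0.06 without CC7, CC8 and CC9. In the tongue tables, each normalised separately, Phactr2 averaged 21.9 ± 1.95 RPM in biallelic and 39.4 ± 4.47 RPM in wild type tongues at E13.5, 45.0 ± 1.31 and 111.9 ± 17.7 RPM at P0, and 61.4 ± 1.78 and 73.8 ± 0.891 RPM at P20 (SD, n = 3 each).

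The transcripts of the sorted cells went against their label. Genes were ranked by mean RPM per kilobase of exon over all 11 animals. Genes of the mitochondrial genome and genes without a matched exon length were placed last. The most abundant of the others with a given name were the iron storage genes Fth1 and Ftl1, B2m, the arginase gene Arg1, Thbs1 and the haem oxygenase gene Hmox1. Cd14, the monocyte co-receptor for lipopolysaccharide, was 10th, and Ctss, a lysosomal protease of macrophages, was 11th. Spp1, Ccl3, Cxcl3 and Lgals3 were also among the first 20, whereas Col2a1, the main collagen of cartilage, ranked 661 and the aggrecan gene Acan ranked 6560.

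Several defining genes of prehypertrophic cells were at or near 0, while other genes of the prehypertrophic and hypertrophic list were abundant. Its 24 genes summed to 1353 to 2649 RPM in biallelic and 1075 to 2394 RPM in wild type animals, and 13 were abundant enough to test. By RPM per kilobase Spp1 ranked 13, Mmp13 ranked 492 and Cd24a ranked 1607, against 18598 for Ihh. Ihh, the Indian hedgehog ligand, was without a read in 5 of 6 biallelic animals and in 4 of 5 wild type ones. Pth1r, the receptor for parathyroid hormone-related protein, was without a read in 5 biallelic and 2 wild type animals, and the osteogenic factor Sp7 in 5 biallelic and 5 wild type animals. Col10a1, the collagen of hypertrophic cartilage, did not exceed 0.609 RPM in biallelic or 0.638 RPM in wild type animals. Sox9, the master transcription factor of cartilage, was detected at 2.74, 5.08 and 7.76 RPM (lowest, median and highest) in biallelic animals and 4.56, 8.11 and 17.8 RPM in wild type animals. The genes of the antibody targets were present: Cd24a ran from 41.2 to 55.6 RPM in biallelic and 28.7 to 50.8 RPM in wild type animals, and Cd200 from 4.78 to 21.3 RPM in biallelic and 5.79 to 19.02 RPM in wild type animals. The cells are therefore called sorted costal cells.

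Markers of white blood cells were high in every library. The 24 genes of the macrophage and monocyte list summed to 11234 to 13354 RPM in biallelic and 6963 to 12297 RPM in wild type animals. The 28 cartilage matrix genes summed to 507 to 1182 RPM in biallelic and 371 to 773 RPM in wild type animals. Ptprc, the common leukocyte antigen CD45, ran from 336 to 482 RPM in biallelic and from 234 to 543 RPM in wild type animals. In bulk libraries fewer cells of a type and less RNA per cell cannot be told apart. Some lists were low: the B cell list summed to 37.5 to 51.4 RPM in biallelic and 16.2 to 58.1 RPM in wild type animals, and the endothelial list to 78.5 to 185 and 72.0 to 169.9 RPM in the same order. Others lay near the cartilage matrix list. The megakaryocyte and platelet list summed to 264 to 821 RPM in biallelic and 480 to 579 RPM in wild type animals. In the same order the osteoclast list summed to 500 to 637 and 373 to 636 RPM, and the osteoblast list to 280 to 916 and 274 to 665 RPM.

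**Figure D2:**
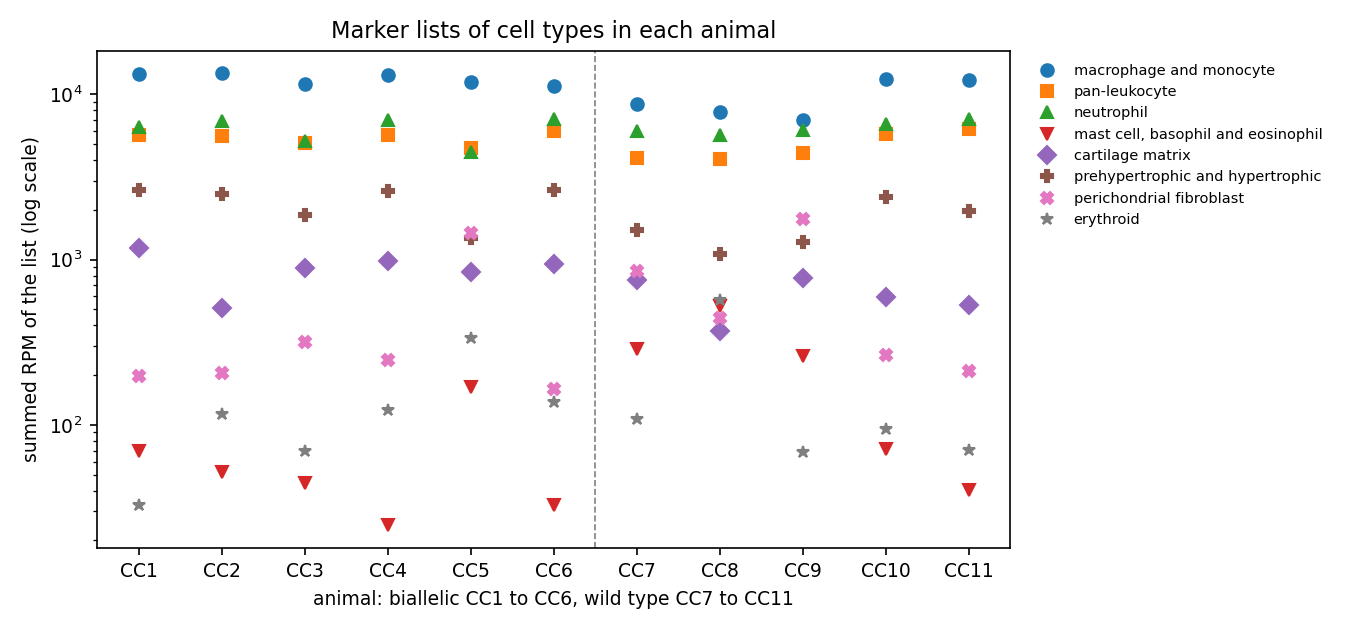
Summed RPM of 8 marker lists (vertical axis, log scale) in each animal, biallelic CC1 to CC6 left and wild type CC7 to CC11 right of the dashed line. The macrophage and monocyte list was the highest in every animal, and the mast cell, basophil and eosinophil list was highest in wild type CC7, CC8 and CC9 and biallelic CC5.

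No gene differed between the genotypes past the threshold. Limma called 0 of 11127 genes (0%) at an adjusted p of 0.05, the smallest adjusted p being 0.423, and voom on the recovered reads also called 0. At an unadjusted p under 0.05 there were 1298 genes (11.7%), of which 858 (7.71%) were lower and 440 (3.95%) higher in biallelic animals. This split depended on scaling: after each library was centred on its median, 391 (3.51%) were lower and 1001 higher, and the median log2 fold change of all genes moved to 0.12 from -0.11. Quantile normalisation gave 526 lower and 633 higher, and voom on the recovered reads 802 lower and 1052 higher. Without wild type CC7, CC8 and CC9 there were 244 lower (2.19%) and 143 higher (1.29%). The share of all genes lower at any p in that setting is not given. Counts of list members lower or higher without these animals therefore cannot be told from a shift of all genes. The genotypes did not overlap at 97 genes (0.872%), with 80 lower (0.719%) and 17 higher (0.153%) in biallelic animals. The gene lists below are read against these shares.

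Genes of protein folding in the endoplasmic reticulum were lower in biallelic animals on balance. This compartment folds secreted and membrane proteins, and its chaperones are induced together when unfolded proteins build up, through the sensors Ern1, Eif2ak3 and Atf6. All 24 members were tested: 23 were lower, their median log2 fold change was -0.55 against -0.11 over all genes, and 15 had an unadjusted p under 0.05, against a background of 7.71% of genes lower. None passed the adjusted threshold. After median centring 21 were lower and 3 higher, 7 of the lower ones at an unadjusted p under 0.05, with a median of -0.32. Without CC7, CC8 and CC9, 19 were lower and 5 higher with a median of -0.28, and 5 of the lower ones had an unadjusted p under 0.05. Without biallelic CC1 to CC4, 21 were lower and 3 higher with a median of -0.23, and 0 had an unadjusted p under 0.05. Over all genes tested, 210 of 11127 were lower at that p in this setting.

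Pdia4, a disulfide isomerase of that compartment, was the member with the smallest p and the one whose groups did not overlap. It was at 165, 219 and 311 RPM (lowest, median and highest of 6) in biallelic animals, against 322, 402, 403, 335 and 384 RPM in wild type CC7 to CC11. Every biallelic value was below every wild type value, with biallelic CC6 nearest to wild type CC7. The log2 fold change was -0.74 (SE 0.17, unadjusted p = 0.00073, adjusted p = 0.423 in limma) and was -0.71 without CC7, CC8 and CC9 and -0.37 without CC1 to CC4.

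Hspa5, which encodes the major chaperone BiP, was at 1688, 2081 and 4079 RPM (lowest, median and highest of 6) in biallelic animals, against 3845, 3773, 4120, 2684 and 2883 RPM in wild type CC7 to CC11. Biallelic CC5 lay within the wild type range and the other 5 biallelic animals below it. Its log2 fold change was -0.61 (SE 0.23), -0.31 without CC7, CC8 and CC9 and -0.28 without CC1 to CC4. Hsp90b1, the Hsp90 of the same compartment, was at 644, 806 and 1102 RPM in biallelic animals, against 1297, 1533, 1760, 957 and 1149 RPM in wild type CC7 to CC11, with a log2 fold change of -0.70 (SE 0.19), or -0.38 without CC7, CC8 and CC9. Creld2, a stress-induced folding factor, averaged 55.4 ± 10.3 RPM in biallelic (SD, n = 6) and 101 ± 35.1 RPM in wild type animals (SD, n = 5), with a log2 fold change of -0.82 (SE 0.22), or -0.38 without those 3 animals. Members moved to different extents without CC7, CC8 and CC9. The log2 fold change of Canx was -0.42, and -0.44 without them. That of Trib3, a pseudokinase induced by this stress, was -1.16, and -0.12 without them. At the other end of the list the stress sensor Ern1 had the one positive log2 fold change, 0.15 (SE 0.35). The summed level of the folding list was 10962 RPM in biallelic CC5 and 5961 to 7708 RPM in the other biallelic animals, against 11449 to 13085 RPM in wild type CC7 to CC9 and 9096 and 9385 RPM in CC10 and CC11. The mean log2 RPM of the granulocyte precursor genes Elane, Prtn3, Mpo and Ctsg was 4.08 in biallelic CC5 and 4.36 to 6.48 in wild type CC7 to CC9, and at most 2.31 in the other animals. With that mean as covariate, 20 folding genes were lower and 4 higher with a median of -0.35, 5 of the lower ones had an unadjusted p under 0.05, and the log2 fold change of Hspa5 was -0.19. Over all genes tested, 416 of 11127 were lower at that p with this covariate. The sums of macrophage markers were 6963 to 8694 RPM in wild type CC7 to CC9, and 12297 and 12113 RPM in CC10 and CC11. They were 11234 to 13354 RPM in biallelic animals, and their part in the folding values was not tested.

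**Figure D3:**
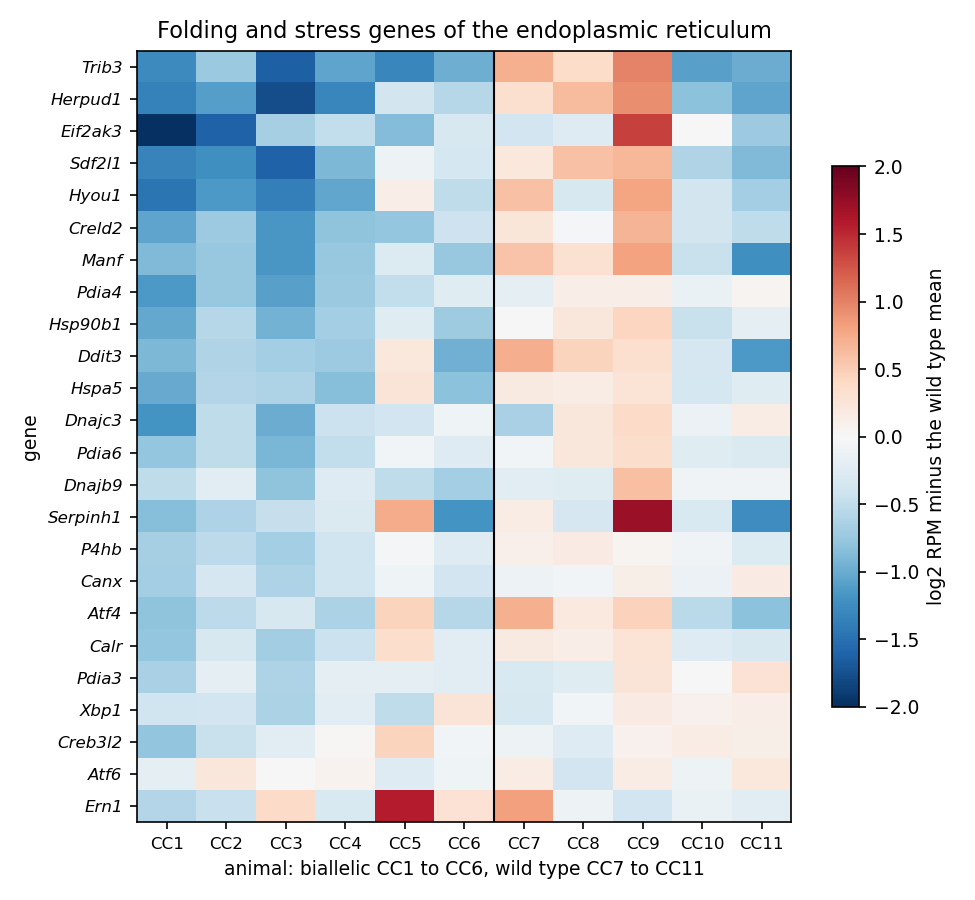
Level of each folding and stress gene (rows) in each animal (columns), as log2 RPM minus the mean of the 5 wild type animals; biallelic CC1 to CC6 stand left of the line and wild type CC7 to CC11 right of it. Most rows are below 0 in biallelic CC1, CC3 and CC4, while biallelic CC5 and wild type CC10 and CC11 lie between the extremes.

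The promoters of 3 of these genes are shown because they carry the stress response element of this compartment, and because their genes had lower mean levels in biallelic animals. The element searched was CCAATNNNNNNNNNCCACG on both strands, in RefSeq windows from 250 bases before to 50 after the start (GRCm38.p6). Of the 21 list members with a window, 7 (33.3%) held it, against 37 of 27025 genes with a window in all (0.137%). This share describes a list that was chosen for the stress response, and a link of the element to genotype was not tested. The 7 were Hspa5, Hsp90b1, Pdia6, Calr, Canx, Dnajc3 and Creld2, and Pdia4 did not hold it within its window. The windows are chr2:34771840-34772139 on the plus strand for Hspa5, chr10:86705395-86705694 on the minus strand for Hsp90b1 and chr15:88819396-88819695 on the plus strand for Creld2, and capitals mark the element on either strand.
Hspa5: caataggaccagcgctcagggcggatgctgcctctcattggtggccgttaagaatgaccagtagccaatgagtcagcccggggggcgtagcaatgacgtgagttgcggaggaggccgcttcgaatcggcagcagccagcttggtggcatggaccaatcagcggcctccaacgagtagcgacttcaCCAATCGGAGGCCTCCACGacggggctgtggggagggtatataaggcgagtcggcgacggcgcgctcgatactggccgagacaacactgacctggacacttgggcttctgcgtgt
Hsp90b1: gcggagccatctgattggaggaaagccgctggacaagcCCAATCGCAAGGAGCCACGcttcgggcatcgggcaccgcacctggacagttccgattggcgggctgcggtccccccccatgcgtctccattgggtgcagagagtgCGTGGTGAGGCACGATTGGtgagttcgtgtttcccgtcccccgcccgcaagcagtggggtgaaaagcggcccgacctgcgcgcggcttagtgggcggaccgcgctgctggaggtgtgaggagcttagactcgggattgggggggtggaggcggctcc
Creld2: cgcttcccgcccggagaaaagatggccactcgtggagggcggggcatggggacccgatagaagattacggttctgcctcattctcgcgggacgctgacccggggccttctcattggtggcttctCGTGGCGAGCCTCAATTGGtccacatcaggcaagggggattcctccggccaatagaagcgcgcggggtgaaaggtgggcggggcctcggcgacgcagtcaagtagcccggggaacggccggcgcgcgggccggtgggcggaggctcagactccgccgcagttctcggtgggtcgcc

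Genes of RNA-binding proteins that coat and splice nuclear transcripts (the hnRNP and SR families) were also lower on balance. Of 43 tested members 37 were lower and 6 higher, and their median log2 fold change was -0.42. Of the lower ones 16 had an unadjusted p under 0.05, against a background of 7.71% of genes lower. After median centring 29 were lower and 14 higher with 6 of the lower ones under that p, where 3.51% of all genes were. Without CC7, CC8 and CC9 34 were lower and 9 higher with 4 under it, where 2.19% of all genes were lower at that p. Hnrnpu, a chromatin scaffold protein, had the smallest p of all genes. It was at 39.6, 56.0 and 107.5 RPM (lowest, median and highest of 6) in biallelic animals, against 197, 184, 258, 84.7 and 145 RPM in wild type CC7 to CC11. Biallelic CC4 overlapped wild type CC10, and the log2 fold change was -1.50 (SE 0.29, unadjusted p = 0.00013, adjusted p = 0.423 in limma) or -0.94 without CC7, CC8 and CC9. Pcbp1, which binds poly(C) RNA, was at 36.3, 47.4 and 63.3 RPM in biallelic animals, against 144, 114, 151, 75.1 and 63.0 RPM in wild type CC7 to CC11, and its log2 fold change of -1.12 (SE 0.24) was -0.54 without CC7, CC8 and CC9. Hnrpll did not overlap, at 16.4 ± 5.07 RPM in biallelic (SD, n = 6) and 33.1 ± 9.02 RPM in wild type animals (SD, n = 5).

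Cartilage matrix genes were higher on balance. Of 21 tested members 15 were higher and 6 lower, their median log2 fold change was 0.41, and 6 had an unadjusted p under 0.05, all higher, against a background of 3.95%. Without CC7, CC8 and CC9 the counts were again 15 higher and 6 lower, with a median of 0.57 and 4 at an unadjusted p under 0.05, and after median centring 17 were higher and 4 lower. With log2(RPM + 1) values 13 were higher and 8 lower, and the median was 0.09. Leaving out wild type CC8 alone gave 11 higher and 10 lower with a median of 0.08, and array weights gave 11 higher and 10 lower with a median of 0.44. With the granulocyte precursor covariate 18 were higher and 3 lower, 1 of them at an unadjusted p under 0.05. Over all 11127 genes tested, 123 were higher and 416 lower at that p with this covariate.

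Col2a1, the fibrillar collagen of cartilage, was at 245, 538 and 760 RPM (lowest, median and highest of 6) in biallelic animals, against 433, 154, 317, 301 and 242 RPM in wild type CC7 to CC11. Biallelic CC2 lay among the wild type animals and the other 5 biallelic animals lay above all of them. The log2 fold change was 0.87 (SE 0.29, adjusted p = 0.423 in limma), and between 0.66 and 1.09 in all alternatives run. Lect1, which encodes chondromodulin, a cartilage protein that blocks vessel growth, was at 8.54, 13.52 and 19.4 RPM in biallelic animals, against 4.46, 0.155, 3.62, 5.33 and 7.83 RPM in wild type CC7 to CC11. Its groups did not overlap, wild type CC8 having no read, and its log2 fold change was 2.37 (SE 0.79), or 1.02 without CC7, CC8 and CC9. Epyc, a small proteoglycan of growth cartilage, and Cytl1, a secreted cartilage protein, were at 3.67 ± 1.998 and 2.28 ± 1.62 RPM in biallelic animals (SD, n = 6) and at 1.30 ± 1.92 and 0.447 ± 0.375 RPM in wild type animals (SD, n = 5). Epyc had a log2 fold change of 2.57 (SE 0.86), and of 0.86 without CC7, CC8 and CC9. That of Cytl1 was 2.27, or 1.03 with log2(RPM + 1) values. The level of 3 reads was 0.3804 to 1.02 RPM in wild type libraries. The wild type mean of Cytl1 lay within that range and that of Epyc just above it. Sox9 and Acan had negative log2 fold changes of -0.75 (SE 0.38) and -0.46 (SE 0.43); without CC7, CC8 and CC9 that of Sox9 was -0.16, and without wild type CC9 alone that of Acan was -0.086. Of 13 tested prehypertrophic and hypertrophic genes, 8 were higher and 5 lower with a median of 0.08. The one with an unadjusted p under 0.05 was Vegfa, the vessel growth factor, at 11.2 ± 1.51 RPM in biallelic (SD, n = 6) and 26.5 ± 13.3 RPM in wild type animals (SD, n = 5); without CC7, CC8 and CC9 its log2 fold change of -1.07 was -0.17.

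**Figure D4:**
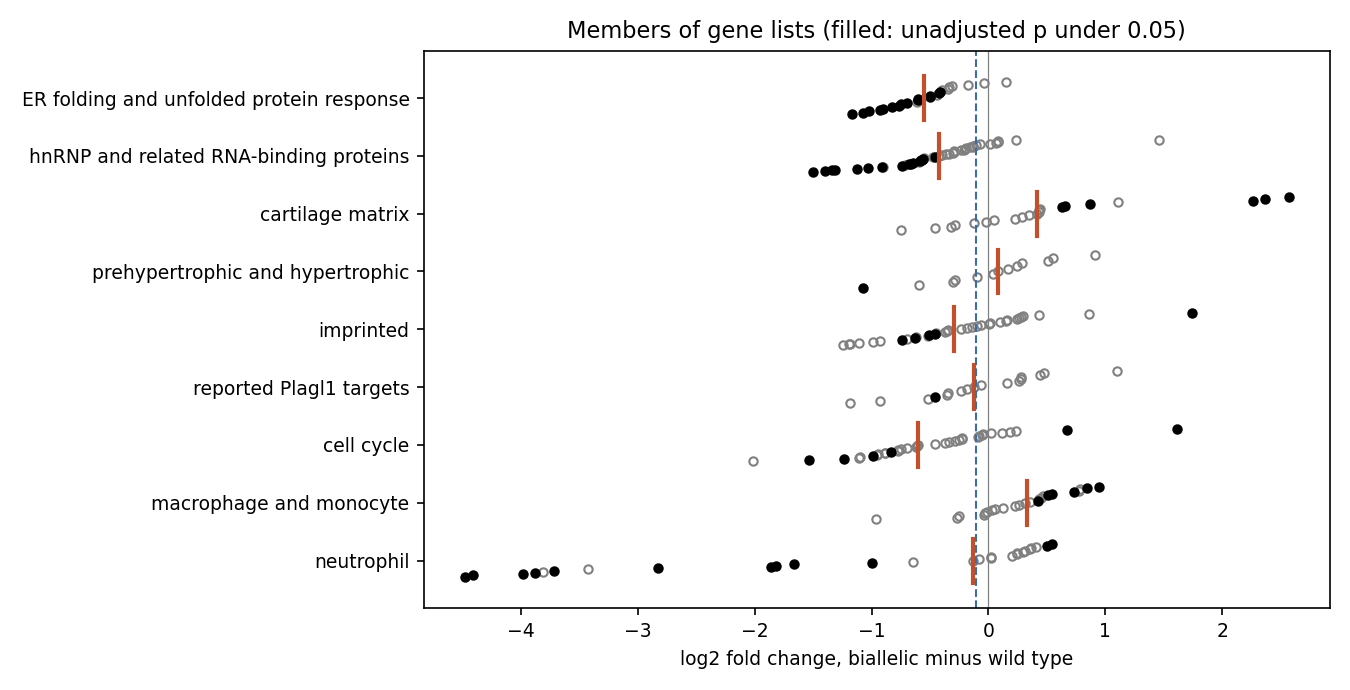
Log2 fold changes (horizontal axis, biallelic minus wild type) of the tested members of 9 lists, 1 point a gene, filled where the unadjusted p was under 0.05; orange bars are list medians and the dashed line the median of all genes tested, -0.11. The folding and hnRNP lists lie mostly left of it and the cartilage matrix list mostly right, and some granulocyte genes of the neutrophil list reach below -4.

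Imprinted genes lay in both directions. Of 34 tested members, Plagl1 included, 22 were lower and 12 higher with a median of -0.29, and after median centring 18 were lower and 16 higher. At an unadjusted p under 0.05 were 4 lower genes, among them H13, Gnas and Trappc9, and 1 higher gene, Plagl1. Over all genes tested, 7.71% were lower and 3.95% higher at that p. H13, a signal peptide peptidase, averaged 66.6 ± 16.8 RPM in biallelic (SD, n = 6) and 103 ± 24.6 RPM in wild type animals (SD, n = 5), a log2 fold change of -0.63 (SE 0.20). Gnas, a G protein subunit gene, averaged 148 ± 27.6 RPM in biallelic (SD, n = 6) and 203 ± 41.6 RPM in wild type animals (SD, n = 5), a log2 fold change of -0.45 (SE 0.18); without CC7, CC8 and CC9 the log2 fold changes of H13 and Gnas were -0.27 and -0.16. Of 17 tested genes reported elsewhere as Plagl1 targets, 10 were lower and 7 higher with a median of -0.13, and after median centring 7 were lower and 10 higher. The growth factor Igf2 ran from 24.8 to 75.8 RPM in biallelic and from 27.6 to 119 RPM in wild type animals, and the noncoding RNA H19 from 22.2 to 56.6 RPM in biallelic and from 12.3 to 100.9 RPM in wild type animals, so both overlapped widely. The letters GGGGCCCC, a sequence that ZAC1 binds in vitro, were in the window of 0 of 23 genes named by separation or smallest p that had one, and in 1.25% of all genes with a window. With so low a share, a count of 0 among 23 genes cannot tell whether the protein binds them.

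Cell cycle genes were lower on balance with all animals, and the direction depended on which animals were kept. Of 35 tested members 29 were lower and 6 higher with a median of -0.60, but without wild type CC7, CC8 and CC9 13 were lower and 22 higher with a median of 0.09. Without biallelic CC5 as well, 19 were lower and 16 higher with a median of -0.03. The mitotic cyclin gene Ccnb1 had a log2 fold change of -1.53 (SE 0.63), or -0.22 without those animals. Ccnd1, cyclin D1, was higher, at 9.22 ± 1.41 RPM in biallelic (SD, n = 6) and 5.95 ± 1.77 RPM in wild type animals (SD, n = 5). Among 22 tested Cdk inhibitors and p53 response genes 16 were lower, and 7 without CC7, CC8 and CC9. Gadd45a, a stress-induced growth arrest gene, averaged 26.4 ± 3.50 RPM in biallelic (SD, n = 6) and 66.2 ± 32.5 RPM in wild type animals (SD, n = 5), and its log2 fold change of -1.17 was -0.29 without them.

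Some markers of granulocytes and of basophils were high in the same 3 wild type animals. The neutrophil list summed over all its genes was not. Elane, neutrophil elastase of precursor cells, was at 0.0589, 0.548 and 27.1 RPM (lowest, median and highest of 6) in biallelic animals, against 76.3, 28.8, 89.7, 5.33 and 0.306 RPM in wild type CC7 to CC11. Biallelic CC5 was the one biallelic animal at the level of CC7 to CC9, and 2 biallelic and 1 wild type animal had no read. S100a8, a calcium-binding protein of neutrophils, was at 57.7, 89.0 and 129 RPM in biallelic animals, against 600, 469, 714, 120 and 107 RPM in wild type CC7 to CC11. Mcpt8, a basophil protease, was at 9.14 RPM in biallelic CC5 and at most 0.508 RPM in the other 5 biallelic animals, against 14.5, 40.2, 13.8, 2.41 and 0.681 RPM in wild type CC7 to CC11.

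As lists, 27 tested neutrophil genes were lower in 15 cases and higher in 12, with 10 lower and 2 higher at an unadjusted p under 0.05, and a median of -0.13 that became 0.10 after median centring. Without CC7, CC8 and CC9, 19 were lower and 8 higher, with 1 lower and 0 higher at that p. The 34 listed neutrophil genes summed to 4473 to 7038 RPM in biallelic animals. In wild type animals they summed to 5649 to 6091 RPM in CC7 to CC9, 6606 RPM in CC10 and 7099 RPM in CC11. Over all genes tested, 7.71% were lower and 3.95% higher at an unadjusted p under 0.05 with all animals. All 7 tested mast cell, basophil and eosinophil genes were lower, 5 of them at an unadjusted p under 0.05, and without CC7, CC8 and CC9 4 were lower and 3 higher with none at that p. Macrophage and monocyte genes were higher on balance: 18 of 24 were higher, 6 at an unadjusted p under 0.05 and a median of 0.33, but without CC7, CC8 and CC9 12 were higher and 12 lower with a median of -0.01. Csf1r, the receptor for the macrophage growth factor, was at 549.8, 626 and 861 RPM (lowest, median and highest of 6) in biallelic animals, against 441, 448, 291, 572 and 598 RPM in wild type CC7 to CC11. Its log2 fold change was 0.51 (SE 0.19), and 0.15 without CC7, CC8 and CC9. Perichondrial fibroblast genes were lower in 15 of 20 tested members with a median of -0.69 and higher in 16 without CC7, CC8 and CC9, while without CC5 as well 12 were lower and 8 higher. Their sum was 1447 RPM in biallelic CC5 and 164 to 316 RPM in the other biallelic animals, and 212 to 1751 RPM in wild type animals.

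The genes with the clearest separation had varied roles. Higher in every biallelic animal than in any wild type animal, and named by smallest p, were Plagl1, Wdtc1, Ctla2b, Rnaset2a, Pxk, Tlr9, Lect1, Prss50, Plxnb2, Micall2 and Fam133b. Wdtc1, a repressor of fat cell formation, was at 19.9, 24.3 and 28.6 RPM (lowest, median and highest of 6) in biallelic animals, against 17.2, 10.2, 5.5003, 15.0 and 16.3 RPM in wild type CC7 to CC11. Its log2 fold change was 1.03 (SE 0.29), and 0.63 without CC7, CC8 and CC9. Tlr9, the receptor for unmethylated CG DNA in macrophages and B cells, was at 7.41, 9.48 and 10.2 RPM in biallelic animals, against 1.40, 0.173, 3.04, 4.82 and 6.13 RPM in wild type CC7 to CC11, and its log2 fold change of 2.27 (SE 0.72) was 0.72 without those animals. Plxnb2, a semaphorin receptor, averaged 145 ± 8.39 RPM in biallelic (SD, n = 6) and 106 ± 26.4 RPM in wild type animals (SD, n = 5), a log2 fold change of 0.49 (SE 0.18) that was 0.24 without those animals. Ctla2b and Rnaset2a have near-identical copies, Ctla2a and Rnaset2b, whose log2 fold changes were 0.07 and -0.02, so how reads were shared within each pair is uncertain.

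Lower in every biallelic animal were Alox5, Psme3, Top2b, Rab5a, Zfp106, Sfxn1, Pdia4, Clptm1l, Zfp770, Abhd13, Klf3 and Fut8 as the 12 of smallest p. Alox5, the lipoxygenase that makes leukotrienes in myeloid cells, was at 1.21, 3.17 and 6.19 RPM (lowest, median and highest of 6) in biallelic animals, against 20.2, 23.0, 39.4, 7.99 and 8.17 RPM in wild type CC7 to CC11. Its log2 fold change was -2.51 (SE 0.50, unadjusted p = 0.00018, adjusted p = 0.423 in limma), and -1.49 without CC7, CC8 and CC9, the 3 highest animals. Other eicosanoid genes lay in both directions: of 18 tested, 8 were lower and 10 higher, or 12 lower and 6 higher without CC7, CC8 and CC9. Ptges, the prostaglandin E synthase, averaged 851 ± 212 RPM in biallelic (SD, n = 6) and 494 ± 224 RPM in wild type animals (SD, n = 5), a log2 fold change of 0.87 (SE 0.29) that was 0.20 without those animals. Psme3, an activator of the proteasome, averaged 6.57 ± 3.02 RPM in biallelic (SD, n = 6) and 26.5 ± 16.1 RPM in wild type animals (SD, n = 5), whereas of the 39 proteasome genes 20 were lower and 19 higher with a median of -0.02. After median centring 3 of the 39 were lower and 36 higher, but that setting moved the median of all genes from -0.11 to 0.12.

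Top2b, topoisomerase II beta, had nearly the same fold change without the wild type animals that stood apart. It was at 19.4, 24.2 and 31.6 RPM (lowest, median and highest of 6) in biallelic animals, against 51.1, 34.4, 47.0, 35.8 and 47.3 RPM in wild type CC7 to CC11, and its log2 fold change of -0.83 (SE 0.19) was -0.78 without CC7, CC8 and CC9. Rab5a, the GTPase of early endosomes, averaged 38.1 ± 11.98 RPM in biallelic (SD, n = 6) and 78.0 ± 18.1 RPM in wild type animals (SD, n = 5), with a log2 fold change of -1.07 (SE 0.25) and -1.04 without those animals. Of 30 tested endosome and Rab genes 13 were lower and 17 higher, or 19 lower and 11 higher without those animals. Clptm1l, a membrane protein, and Klf3, a transcriptional repressor, had log2 fold changes of -0.94 (SE 0.22) and -0.85 (SE 0.21), and of -1.08 and -0.70 without CC7, CC8 and CC9. Sfxn1, a mitochondrial serine transporter, had -2.49 (SE 0.58), and -1.13 without them. It ranked 9245 by RPM per kilobase and was tested in 26 of the 28 alternatives, as it did not pass the stricter filters. Zfp770 had 0.530 ± 0.240 RPM in biallelic (SD, n = 6) and 3.56 ± 2.07 RPM in wild type animals (SD, n = 5), close to the level of 3 reads in some libraries. No biallelic animal reached 1 RPM of it, so it passed the filter through the wild type animals alone and had to be lower in biallelic animals, as did 1 other of the 80 lower genes without overlap.

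Mmp9 and Cd55 were among the 10 genes of smallest p although their groups overlapped. Mmp9, the gelatinase of neutrophils and osteoclasts that also opens the growth plate to vessels, was at 7.46, 16.9 and 30.1 RPM (lowest, median and highest of 6) in biallelic animals, against 27.9, 98.2, 56.0, 82.0 and 44.6 RPM in wild type CC7 to CC11. Biallelic CC4 lay just above wild type CC7, and the log2 fold change of -1.86 (SE 0.41) was -1.97 without CC7, CC8 and CC9. Cd55, which protects cells from complement, averaged 1.75 ± 0.780 RPM in biallelic (SD, n = 6) and 9.05 ± 5.26 RPM in wild type animals (SD, n = 5), with a log2 fold change of -2.25 (SE 0.52) and -1.33 without those animals. Of 17 tested matrix metalloprotease genes and their inhibitors 7 were lower and 10 higher, or 14 lower and 3 higher without those animals. Of 11 complement genes 5 were lower and 6 higher, or 9 lower and 2 higher without them. A shift of all genes in that setting cannot be told apart from these counts.

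**Figure D5:**
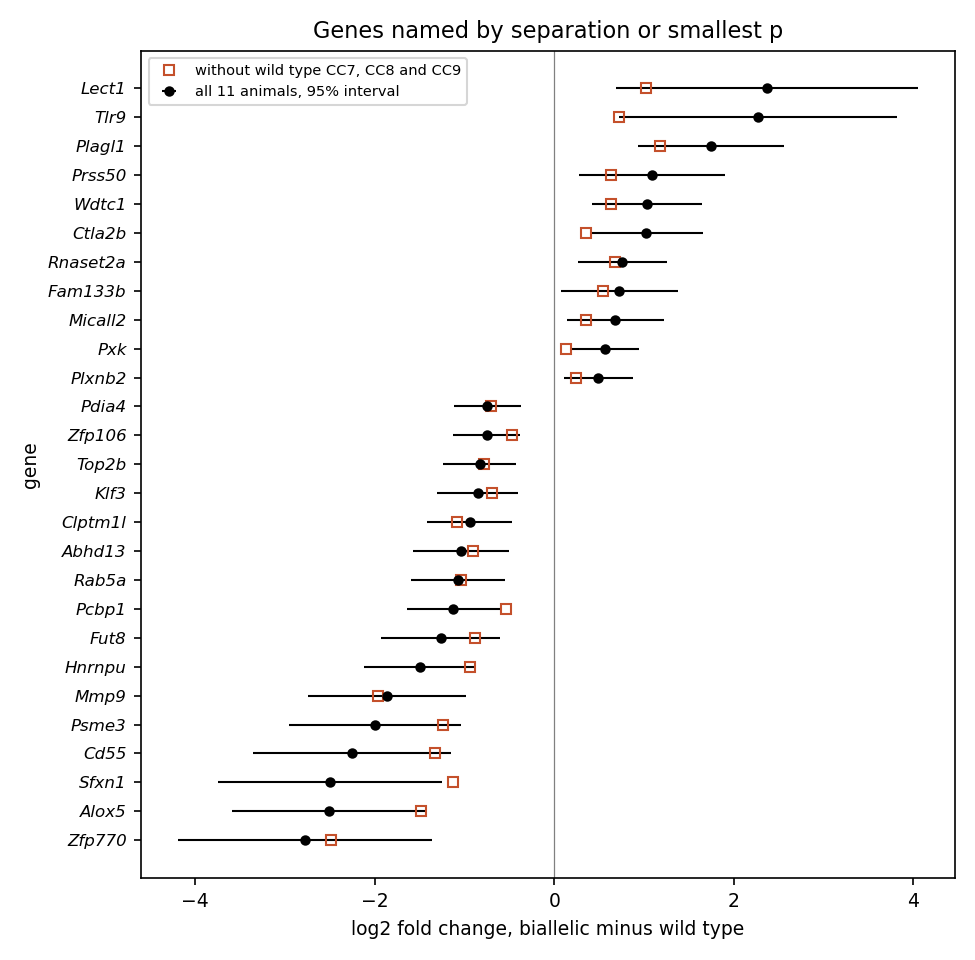
Log2 fold changes (horizontal axis, biallelic minus wild type) of the genes named by separation or smallest p; filled points with bars are values and 95% intervals from all 11 animals, and open squares the values without wild type CC7, CC8 and CC9. Squares of Plagl1, Top2b, Rab5a, Pdia4 and Mmp9 stay within the interval, while those of Pcbp1, Sfxn1 and several others lie nearer 0 than theirs.

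The remaining signalling lists are given as counts. With all animals 59.2% of all tested genes were lower, and 7.71% were lower at an unadjusted p under 0.05. Of 21 tested insulin and IGF genes 13 were lower and 8 higher, 2 of the lower ones at an unadjusted p under 0.05 and 0 without CC7, CC8 and CC9. Of 23 BMP, TGF beta and FGF genes 15 were lower and 8 higher, 3 of the lower ones at that p, and without CC7, CC8 and CC9 12 were lower and 11 higher. Of 29 immediate early and heat shock genes 23 were lower and 6 higher with a median of -0.31, and 8 were lower and 21 higher without CC7, CC8 and CC9. Only 4 of 17 hedgehog and PTHrP pathway genes were abundant enough to test.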

How the data were processed

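Polyadenylated RNA of sorted costal cells was sequenced from 6 biallelic and 5 wild type mice. The authors deposited log2 RPM per gene, which are reads scaled to the library total with no length correction. The submitters' processing notes name Trim Galore 0.4.2, HISAT2 and the build GRCm38. How reads were counted, and whether by strand, is not stated in any source used, so overlapping or antisense genes cannot be told apart. A gene without reads is listed at 0.9 reads, so that its value falls with depth. Within 0.05 of a read, 100% of low values came out whole, which gave the read totals.

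Of 25965 genes, the 11127 that reached 1 RPM in 5 or more of the 11 animals were tested on the log2 values with limma 3.58.1 in R 4.3.3 (mean-variance trend, Benjamini-Hochberg adjustment, threshold 0.05), biallelic minus wild type. The limma step was checked on simulated data. Alternatives changed the scaling, filter, added value, model, covariates and animals, and voom was run on the recovered whole reads. Whether animals came from separate litters is not stated, and p-values measure the spread between these animals. The smallest chi-square per degree of freedom between libraries was 7.19, so none repeated another.

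The members, the 32 gene lists and the tests were chosen with earlier results of these data known. Named genes were Plagl1 and its neighbours, the 12 higher and 12 lower genes of smallest p among those whose groups did not overlap, the 10 of smallest p, up to 4 members a list by p, and markers by level. Names of the Gm and Rik kind were counted and not named, and 1 higher gene that the rule picked is not reported here. Igf2, H19, Plag1, Plagl2, Sox9, Acan, Elane, Hspa5 and Ptprc were chosen after their values were seen, as were the lists described. Promoter windows come from RefSeq (GRCm38.p6).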

Additional observations from a re-analysis of the deposited data

Results flagged for a closer look

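Some animals lay far from the others of their genotype on the log2 scale, by a gap test at the 95% level applied to 118 groups, of which 10 were picked out; chance picks about 1 in 20. Biallelic CC5 accounted for 5 of the 10. It had 18.6 RPM of Fam133b, against 7.74 to 9.63 RPM in the other biallelic animals. It also had the lowest biallelic values of Zfp770 (0.125 RPM, which stands for no read) and of Fut8 (6.09 RPM, against 11.9 to 15.04 RPM). In the same animal the perichondrial fibroblast list summed to 1447 RPM, against 164 to 316 RPM, and the immediate early and heat shock list to 12995 RPM, against 7155 to 8169 RPM in the other biallelic animals.

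Wild type CC8 had 0.155 RPM of Lect1, which stands for no read, against 3.62 to 7.83 RPM in the other wild type animals. Its Micall2 level was 7.25 RPM, against 14.04 to 18.4 RPM, and its erythroid list summed to 571 RPM, against 68.4 to 108 RPM. The skeletal muscle list summed to 25.7 RPM in biallelic CC1, against 51.6 to 75.6 RPM in the other biallelic animals, and the Schwann and neural list to 50.2 RPM in biallelic CC6, against 24.9 to 32.2 RPM.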

How the results depend on the processing

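No gene passed an adjusted p of 0.05 in any of the 28 alternatives, and the direction of Plagl1 held in all of them, with log2 fold changes of 0.99 to 2.42; leaving out 1 animal at a time gave 1.42 to 1.99. The smallest adjusted p of limma in any alternative was 0.0502, close to the threshold, against 0.423 with the main settings. No paired analysis was possible because no animal number is shared by the genotypes. The 1298 genes at an unadjusted p under 0.05 became 8892 with no filter, where genes without reads take lower values in deeper libraries, 842 with the read total as covariate, 825 with the leukocyte covariate, 256 without CC1 to CC4, 387 without CC7 to CC9 and 528 without CC5 and CC7 to CC9. With the mean of Elane, Prtn3, Mpo and Ctsg as covariate there were 539; this setting and the last one were added after the data were seen. Leaving out 1 animal at a time gave 689 (without wild type CC9) to 2413 (without wild type CC11) such genes, and 786 and 839 without biallelic CC1 and CC3. The 97 genes without overlap became 156 with no filter, 765 without CC1 to CC4, 764 without CC7 to CC9, 1108 without CC5 and CC7 to CC9, and 113 to 264 without 1 animal; fewer animals overlap less by construction. Without CC7 to CC9 the log2 fold changes of Fcgr1, Cybb, Emr1, Hdc and S100a9 reversed to -0.079, -0.094, -0.12, 0.19 and 0.082. Without CC5 as well, those of Cybb, Emr1 and Hdc were -0.13, -0.16 and 0.029, and with the granulocyte covariate that of Acan was 0.063; the cause was not tested. Depth limits genes under 0.191 to 1.02 RPM, the level of 3 reads.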
